A study of Mus musculus with 8 samples.

Results

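Early erythroid progenitors with little globin RNA were examined in bone marrow from young, middle-aged, old and very old mice. The members were 10115 of 46159 kept cells, which came from 59465 barcodes. A kept cell had at least 1000 UMIs (unique molecular identifiers, each standing for 1 captured RNA molecule) and under 10% of them in mitochondrial genes. A member had at least 2 UMIs of Klf1, at least 2 of Car1, fewer than 3 of the megakaryocyte gene Pf4, and under 20 UMIs of the 4 adult globin genes Hba-a1, Hba-a2, Hbb-bs and Hbb-bt per 10000 UMIs. The members were thus selected on the measured UMIs of these 7 genes, whose levels are given below as a description and were not tested. The shares of cells that the limits define were tested over ages, and they depend on these genes.

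Lineage-negative c-Kit+ cells, the fraction of marrow that holds stem and progenitor cells, were profiled by droplet single-cell RNA-seq from 8 wild-type mice, 1 library a mouse and 1 male and 1 female at each age. Young mice were 14 weeks old, middle-aged mice 50 weeks, the old male 78 weeks, the old female 79 weeks and very old mice 95 weeks. Strain and treatment are not given in the labels, and "older" below means the old and very old mice together. The library names of both very old mice belong to a different number series from the other 6, so very old age and library series cannot be told apart. Throughout, values for an age are given male first, then female.

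Erythroid progenitors are the cells of the marrow that are committed to making red blood cells. They leave the state they share with megakaryocytes as GATA1, the master erythroid factor, takes over from GATA2, and KLF1 then switches on genes for the red cell membrane, heme synthesis and globin. Survival at this step depends on erythropoietin, which acts through the receptor encoded by Epor, and the cells divide several times before they fill with haemoglobin and lose c-Kit.

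In the GENCODE annotation of GRCm38, the build the labels call mm10, Klf1 lies at chr8:84901928-84905291 on the plus strand and Car1, which encodes carbonic anhydrase 1, an enzyme of red cells, at chr3:14766216-14808368 on the minus strand. Epor lies at chr9:21958897-21963506 and Ermap, which encodes an erythroid membrane protein, at chr4:119175457-119190011, both on the minus strand. The 120 bases upstream of the RefSeq start of Klf1 (chr8:84901862-84901981, plus strand), Epor (chr9:21963577-21963696, minus strand) and Ermap (chr4:119189996-119190115, minus strand) are shown because these genes mark the members and each stretch holds a match to the letters that GATA factors bind. The sequences are from RefSeq (GRCm38.p6), read 5′ to 3′ on the gene's strand, and capitals mark a match on either strand to AGATAA, to its variant TGATAA, or to the same letters with a final G, which read AGATAG for the first variant and TGATAG for the second.
Klf1: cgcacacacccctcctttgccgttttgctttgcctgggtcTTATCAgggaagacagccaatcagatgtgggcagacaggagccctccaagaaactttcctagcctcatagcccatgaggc
Epor: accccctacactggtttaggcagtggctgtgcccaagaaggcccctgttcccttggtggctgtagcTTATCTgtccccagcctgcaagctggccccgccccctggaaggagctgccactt
Ermap: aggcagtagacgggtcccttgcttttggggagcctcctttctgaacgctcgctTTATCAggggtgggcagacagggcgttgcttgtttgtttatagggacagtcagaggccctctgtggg
RefSeq starts can differ from the GENCODE gene ends given above, so that the stretches of Klf1 and Ermap overlap their GENCODE genes and that of Epor lies a short way upstream of its gene. The match began 80 bases before the RefSeq start in Klf1, 54 in Epor and 67 in Ermap. In windows of 250 bases before to 50 after the start, 9 of the 20 red cell membrane genes with a promoter held such a match (45%), against 30.2% of all 27025 promoters. Of the 15 heme synthesis genes with a promoter, 2 held it (13.3%).

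The label was checked against the 2 marker genes that the rule did not use. Epor UMIs were seen in 65.9 to 86.9% of each mouse's members, against 1.63 to 4.98% of granulocyte-monocyte cells, which were taken as kept cells with at least 5 UMIs of Mpo (myeloperoxidase) and no Klf1. Ermap UMIs were seen in 71.0 to 92.7% of members and 1.99 to 7.81% of granulocyte-monocyte cells. The median depth was 20557.5 to 37455 UMIs per member and 15228.5 to 25109.5 per granulocyte-monocyte cell. Both markers were seen far more often in the members in every mouse than in cells that should lack them. The comparison cells were selected without Klf1, so this does not set the members apart from nearer cells, which are given next.

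Members were compared with the cells just outside each limit. Members at exactly 2 UMIs of Klf1 or Car1, 1491 cells, held 48.3 Epor, 90.2 Ermap and 208 Gata2 CPM (UMIs per 1000000 UMIs, pooled over mice). The 2385 cells just outside, at 1 UMI of either gene, held 34.9 Epor, 51.7 Ermap and 196 Gata2 CPM, with 1196 CPM of Mpo against 469 in the members at 2 UMIs. At the other edge, the 385 members with 10 to 20 globin UMIs per 10000 held 138 CPM of Epor and 7.11 of Gata2. The 170 cells with 20 to 40 held 136 and 4.05. The members thus ran from cells rich in Gata2 to cells with little of it. Across the lower limit Mpo and Ermap differed most of these genes, while Epor was close on both sides of the globin limit.

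Library totals ran from 83062003 to 150135029 UMIs, and 4912 to 7265 cells were kept a mouse. Of 58996 distinct barcodes 467 occurred in more than 1 library, and of 10098 distinct member barcodes 17 did. The sums over members, 18183700 to 67040600 UMIs a mouse, were the unit of every gene test, so that a mouse was 1 sample. In a principal component analysis of these sums, the first component (45.9% of the variance) put the very old female at 43.6, the very old male at 36.9 and the young female at 16.1, while the other 5 libraries lay between -27.2 and -14.6. These 3 libraries stood apart from the rest. They also held the most globin RNA, at 2.34 to 2.52 UMIs per 10000 UMIs summed over members, against 0.23 to 0.48 in the other 5 libraries. Median mitochondrial UMIs were 5.45 and 5.76% in members of the very old mice and 4.32 to 4.98% in the others.

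The share of members among kept cells did not follow age in a single direction. It was 22.9 and 30.0% in young mice, 15.8 and 20.7% in middle-aged, 14.0 and 13.5% in old, and 30.7 and 24.4% in very old mice. The old mice were lowest at these limits, and very old mice overlapped with young ones. With cells kept only below 5% mitochondrial UMIs the shares were 25.0 and 29.5, 16.4 and 21.6, 19.9 and 14.8, and 28.2 and 17.8%, and the old male then lay above the middle-aged male and the very old female. Means were 26.4% ± 4.97 (SD, n = 2) in young, 18.2% ± 3.53 in middle-aged, 13.7% ± 0.320 in old and 27.5% ± 4.47 in very old mice. Older mice differed from young ones by -5.80 percentage points, with an exact two-sided permutation p of 0.667 (4 against 2 mice, smallest possible p 0.133). After each cell was thinned to 5000 UMIs the shares were 9.57 and 13, 6.72 and 7.97, 4.89 and 7.08, and 13.4 and 10.1%, with old mice again at the bottom of the male and of the female order. The plot of shares by mouse shows both.

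**Figure D1:**
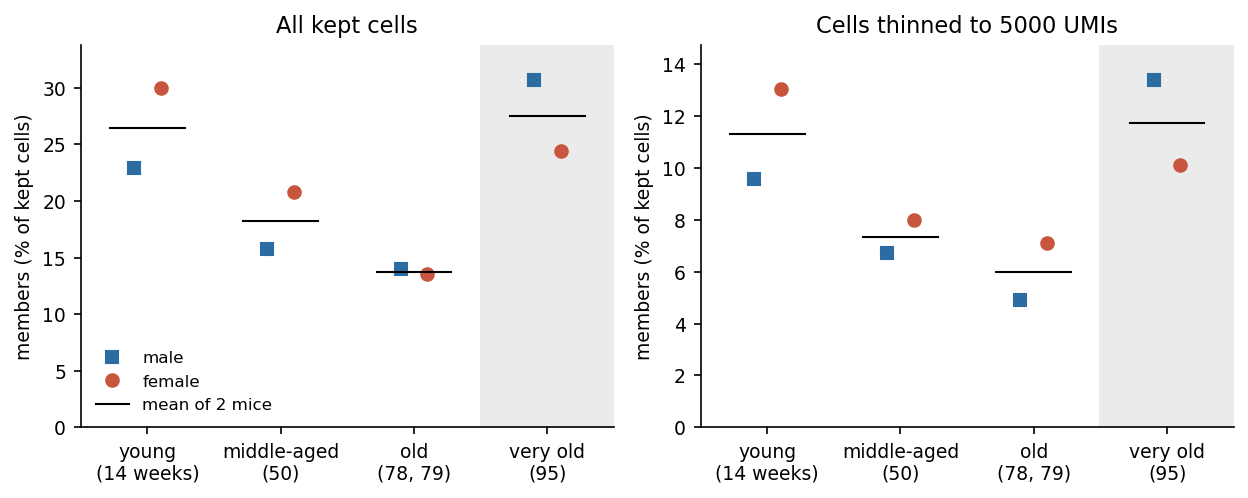
Share of members among kept cells (y axis, %) in each of the 8 mice (x axis), from all UMIs and after thinning every cell to 5000 UMIs, with the very old mice, the second library series, on a grey band. Old mice lie at 14.0 and 13.5% and very old mice at 30.7 and 24.4% before thinning.

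Over all 8 mice the share had no clear relation to age (Pearson r -0.16, exact permutation p 0.677, adjusted p 0.903; Spearman rho 0.036, exact permutation p 0.943, adjusted p 0.967). Leaving out both young mice, whose ages lay farthest from the median, gave an r of 0.50. Within the 6 mice of the first library series the share fell with age (r -0.90, rho -0.97, exact permutation p 0.0111 for each, the smallest these ages allow, adjusted p 0.0444 over the 8 values tested). Below 5% mitochondrial UMIs r was -0.83 and rho -0.88 (exact permutation p 0.0333 for each, unadjusted), and in thinned cells r was -0.85 (exact permutation p 0.0444) and rho -0.77 (p 0.0889). At globin limits of 10 and 40 and at a Klf1 and Car1 minimum of 3, rho was again -0.97 (exact permutation p 0.0111, unadjusted). At a minimum of 1 it was -0.91 (exact permutation p 0.0222, unadjusted). The relation kept its direction in each of these settings, and adjusted values were computed at the main limits only. The second series holds 1 age only and gives no value. These are shares of sorted c-Kit+ cells, so a lower share of members and a higher share of other cells cannot be told apart.

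Cells that met the Klf1, Car1 and Pf4 limits but held more globin numbered 245 in all. The low-globin members made up 100 and 97.1% of the erythroid gate in young mice, 100 and 99.7% in middle-aged, 100 and 99.6% in old, and 95.2 and 95.3% in very old mice. The 2 very old mice were lowest. This share is set by the globin limit of the rule, so its values and tests describe that split only. The difference between older and young mice was -1.02 points (exact two-sided permutation p 0.667, 4 against 2 mice). Across the 8 mice Pearson r with age was -0.43 (exact permutation p 0.293, adjusted p 0.586) and rho -0.58 (p 0.139, adjusted p 0.371). Leaving out both young mice gave -0.78, while within the 6 mice of the first library series r was 0.51 (exact permutation p 0.6, adjusted p 0.903) and rho 0.031 (p 0.967, adjusted p 0.967). The negative relation was not seen within the first series.

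Young female and both very old mice had at least 50 globin-rich cells each, which allowed a description beside their own members. Gata2 was 46.6, 28.6 and 23.4 CPM in their members and 5.09, 3.17 and 3.10 CPM in their globin-rich cells. Kit, the receptor used for the sort, was 69.9, 70.7 and 76.4 CPM in members and 17.1, 15.9 and 17.7 CPM in globin-rich cells. Epor was 92.9, 101 and 99.9 against 132, 148 and 144 CPM. In each of these 3 mice the members were higher in Gata2 and Kit and lower in Epor. Globin defined the split, so no test was run.

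The members were then ordered by a stage score made from genes outside the rule, chosen after the 3 libraries had been seen to stand apart. It was the log2 level of 8 genes that rise as erythroid cells mature (among them Car2, Ermap, Hemgn, Cldn13, Tspan33, Rhag and Blvrb) minus that of 6 genes of earlier progenitors (Gata2, Kit, Cd34, Myb, Itga2b and Meis1). Pooled members were divided into low, middle and high terciles at scores of 1.41 and 3.49. The low tercile held 49.2 and 28.3% of members in young mice, 50.6 and 52.6% in middle-aged, 41.2 and 49.3% in old, and 17.6 and 14.7% in very old mice. The high tercile held 21.5 and 44.5, 12.3 and 11.1, 18.7 and 16.1, and 47.7 and 50.1%. The young female and both very old mice therefore held the most members of high score, and the 2 young mice differed more from each other than the 2 middle-aged or the 2 old mice did.

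Genes outside the score also differed along it, and these values are a description. Depth moved with the score, since the median was 12564.5 to 17135 UMIs a cell in the low tercile and 29807 to 51596 in the high one, and its part in the differences was not tested. Among genes of earlier progenitors, Apoe (apolipoprotein E) was 1598 ± 211 CPM in the low tercile (mean ± SD, n = 8 mice) and 43.7 ± 16 in the high tercile. Vim, which encodes the intermediate filament vimentin, was 505 ± 108 and 8.11 ± 3.36 CPM. Mpo, a granule enzyme of the granulocyte-monocyte line, was 356 ± 63.8 and 49.9 ± 24.1 CPM. All 3 were lower in the high tercile in 8 of 8 mice, as was Myc, the growth regulator, at 149 ± 12.1 and 74.0 ± 4.80 CPM.

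Erythroid genes ran the other way. Epor was 49.9 ± 3.11 CPM in the low, 84.7 ± 8.08 in the middle and 112 ± 9.83 in the high tercile. Tfrc, the transferrin receptor that brings in iron, was 33.1 ± 6.39 and 163 ± 11.5 CPM in the low and high terciles. Rhd, an Rh blood group protein, was 24.9 ± 6.87 and 324 ± 57.3 CPM. Each of these 3 genes was higher in the high tercile in 8 of 8 mice. Gata1 itself was nearly level, at 99.3 ± 3.63 and 110 ± 6.59 CPM, and Klf1, a rule gene, was 232 ± 9.80 and 327 ± 17.5 CPM. Ube2c, a gene of the machinery that ends mitosis, was 178 ± 49.6 CPM in the low and 178 ± 55.8 in the high tercile, but other G2 and M phase genes differed along the score. Birc5, which encodes survivin, a protein of dividing chromosomes, was 122 ± 23 and 262 ± 31.2 CPM, and Cdk1 was 109 ± 20 and 147 ± 26.4 CPM, both higher in the high tercile in 8 of 8 mice. Of 52 G2 and M phase genes 19 were higher in the high tercile in 8 of 8 mice, 4 were lower in all and 29 were neither, and of 43 S phase genes 33, 1 and 9. The share over all genes was not computed along the score, so these counts are not read as a result about the cell cycle.

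**Figure D2:**
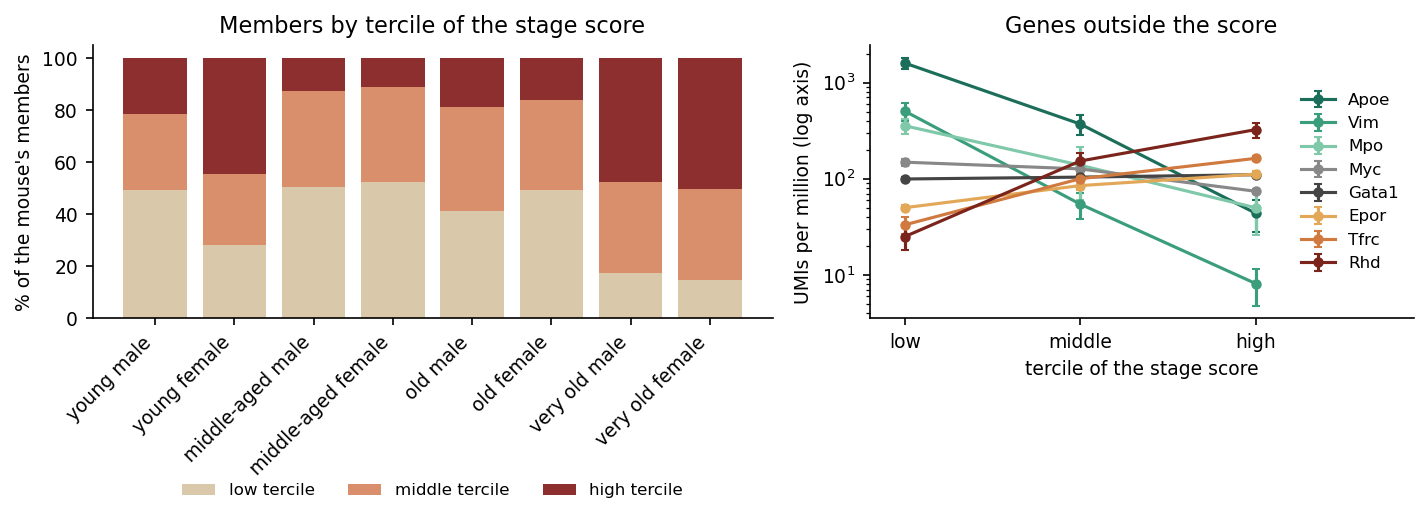
Left, the percentage of each mouse's members (y axis) in the low, middle and high tercile of the stage score for the 8 mice (x axis). Right, mean ± SD over 8 mice of the level of 8 genes outside the score (y axis, CPM on a log axis) by tercile (x axis), with Apoe and Vim highest in the low tercile and Rhd, Tfrc and Epor highest in the high one.

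The 4 marker genes were compared over ages first. Klf1, a rule gene, was 271 and 318 CPM in young mice, 264 and 246 in middle-aged, 266 and 275 in old, and 308 and 305 in very old mice. Car1, also a rule gene, was 3636 and 2752, 3156 and 2456, 3557 and 2720, and 4279 and 3362 CPM. Very old and young mice overlapped for Car1, with the male above the female at each age. Epor was 84.5 and 101 CPM in young, 68.8 and 74.5 in middle-aged, 74.5 and 75.1 in old, and 112 and 109 in very old mice. Very old mice were above all the others. Against young mice the log2 fold change of Epor was 0.26 ± 0.09 (SE, adjusted p 0.115), and against old mice 0.56 ± 0.09 (adjusted p 0.00644, edgeR quasi-likelihood test). Ermap was 189 and 237, 184 and 155, 165 and 190, and 248.6 and 261 CPM, with a log2 fold change of 0.26 ± 0.13 (adjusted p 0.228) for very old against young mice. Among members matched for stage, described below, the very old against young fold changes of Epor and Ermap were 0.08 and 0.07, and Ermap is a gene of the score used for the matching. In all members, leaving out the young male gave 0.15 for Epor and 0.11 for Ermap, and leaving out the young female gave 0.38, which passed the test, and 0.43, which did not.

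**Figure D3:**
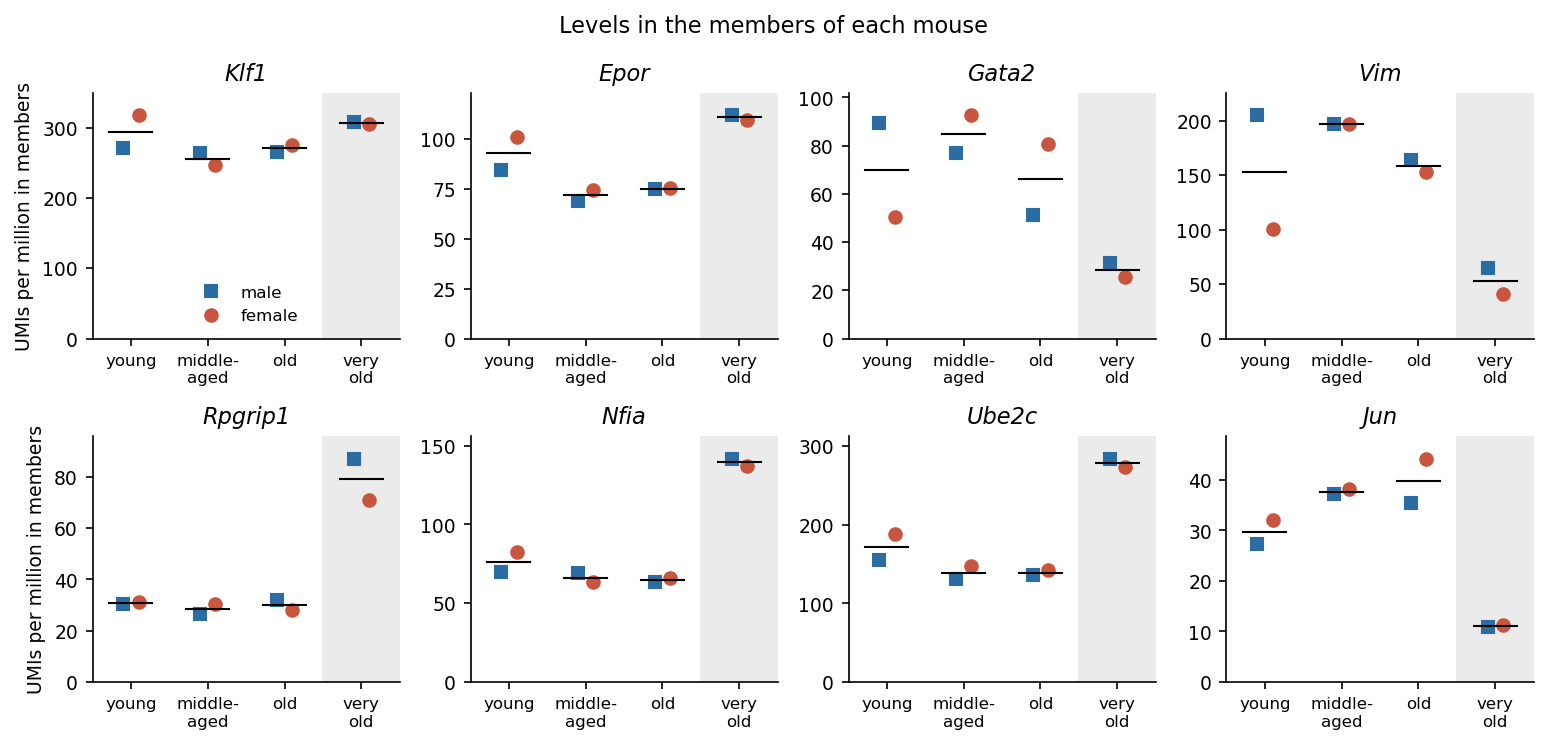
Level in members (y axis, CPM) of Klf1, Epor, Gata2, Vim, Rpgrip1, Nfia, Ube2c and Jun in each of the 8 mice (x axis, by age). Very old mice are highest for Rpgrip1, Nfia and Ube2c and lowest for Gata2, Vim and Jun.

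Across 12558 genes, none passed an adjusted p of 0.05 in older against young mice (edgeR quasi-likelihood test with a term for sex, Benjamini-Hochberg adjustment). The share called was 0%, with 984 genes at an unadjusted p under 0.05 and 17 called by DESeq2. Middle-aged against young gave 0 calls (1632 at an unadjusted p under 0.05, 174 by DESeq2) and old against young 0 (1017 and 58). With the young female left out, 153 genes were called in older against young mice. With the young male left out, 659 were called in middle-aged against young and 240 in old against young mice.

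Although no gene was called, the red cell lists lay low in middle-aged and old mice. Of 27 measured genes of the red cell membrane and surface, 22 were below both young mice in both middle-aged mice, against 21.2% of all genes, and 15 were in both old mice, against 15.9%. The median log2 fold change of the list was -0.44 in middle-aged and -0.26 in old mice. For 19 heme synthesis genes the medians were -0.47 and -0.35, with 14 and 13 genes below both young mice. The medians over all genes were -5.6e-05 and -0.0046. In members matched for stage the medians of the red cell list were -0.10 and -0.16, and those of the heme list -0.08 and -0.09. The score used for matching holds erythroid genes, among them Rhag of the red cell list, so matching acts on that list directly. Markers of other cell types differed too. Against young mice the median was 0.44 in middle-aged and 0.11 in old mice for 13 megakaryocyte markers, 0.44 and 0.90 for 9 basophil and mast cell markers, 0.43 and 0.16 for 13 stem cell markers, -0.11 and -0.27 for 16 granulocyte and monocyte markers, 0.14 and -0.06 for 8 lymphoid and dendritic markers, and -0.48 and -1.78 for 9 macrophage markers, and their part in the result was not tested. The 2 comparisons share the young mice.

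With all mice in the fit, very old against young gave the most calls of the comparisons with young mice. This order turned without the young male and without the very old male, when middle-aged against young gave more. In all 543 of 12558 genes passed, 204 higher (1.62%) and 339 lower (2.7%) in very old mice. The number rests on few libraries. It was 1794 without the young female, 13 without the young male, 4 without the very old male, 21 without the very old female and 9 without either middle-aged mouse. Without the old male it was 1191 and without the old female 1176. It was also 1 when cells were kept only below 5% mitochondrial UMIs. Because the very old mice held more members of high stage score, the contrast was repeated on 621 members a mouse. Each of 10 bins of the score gave the same number of members from every mouse, set by the mouse with the fewest there. Of 11722 genes, 56 then passed, 38 higher (0.324%) and 18 lower (0.154%), and 49 of them had been called in all members with the same direction (9.02% of the first list, 87.5% of the second). In the matched members, leaving out a mouse gave 1 call without the young male, 6 to 38 without either middle-aged, the young female or either very old mouse, 173 without the old female and 282 without the old male.

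Among called genes with a mean of at least 20 CPM and no overlap of the groups, the 5 largest rises in very old against young members were in Rpgrip1, Notch2, Atp7b, Daam1 and Nfia. Rpgrip1, known for its role in photoreceptor cilia, was 30.2 and 31.2 CPM in young, 26.5 and 30.4 in middle-aged, 32.0 and 28 in old, and 87.0 and 70.8 in very old mice. Its very old mice stood clear of all others, with a log2 fold change of 1.36 ± 0.11 (adjusted p 0.00466) in all members and 1.18 ± 0.11 (adjusted p 0.00229) in matched ones. In granulocyte-monocyte cells of the same libraries the fold change was 1.05 (adjusted p 0.0011). Notch2, a receptor for cell contact signals, was 17.6 and 15.4, 18.8 and 17.1, 13.4 and 15.9, and 39.4 and 27.6 CPM. It too rose, by 1.01 ± 0.15 (adjusted p 0.0227), by 1.03 ± 0.14 in matched members (adjusted p 0.0199) and by 1.04 in granulocyte-monocyte cells (adjusted p 0.00526). Both rises were of similar size in cells of another lineage from the same libraries.

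Nfia encodes a transcription factor that promotes the erythroid over the granulocytic fate. It was 70.0 and 82.8 CPM in young, 69.1 and 63.2 in middle-aged, 63.8 and 66.0 in old, and 142 and 137 in very old mice, with no overlap between very old and other mice. The log2 fold change was 0.87 ± 0.10 (adjusted p 0.0145), and 0.69 ± 0.08 in matched members (adjusted p 0.00857). Along the stage score Nfia was 44.6 ± 13.5 CPM in the low and 96.4 ± 23.9 in the high tercile. Its change in granulocyte-monocyte cells is not given here, so the rise of Nfia is not read as particular to the members. Atp7b, a copper transporter, was 22 and 27.6, 17.7 and 16.7, 17.8 and 18.7, and 53.3 and 43.3 CPM. Its fold change was 0.96 ± 0.13 (adjusted p 0.0217), and 0.77 ± 0.13 in matched members (adjusted p 0.0367). Daam1, a formin that builds actin filaments, was 31.0 and 35.7, 29.3 and 24.4, 32.0 and 27.2, and 59.4 and 63.2 CPM (0.87 ± 0.12, adjusted p 0.0217; matched 0.61 ± 0.08, adjusted p 0.0148). In granulocyte-monocyte cells the fold change was -0.29 for Atp7b and 0.12 for Daam1, and the difference between the cell groups passed the test for both (Atp7b 1.23 ± 0.26, adjusted p 0.027; Daam1 0.77, adjusted p 0.020). Neither gene's difference between cell groups was called in matched members, where its size is not given. In all members the number of genes called for such a difference rested on both very old mice, as given below. Aldh1a1, a retinaldehyde dehydrogenase, was 32.1 and 54.0 CPM in young and 74.5 and 70.8 in very old mice and passed only in matched members (0.80 ± 0.12, adjusted p 0.0241).

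Genes of the last steps of the cell cycle lay higher in very old members. Of 52 measured genes of the G2 and M phases, 15 were called higher and 0 lower in very old than young mice (background 1.62 and 2.7%), the median log2 fold change was 0.30 against -0.0018 over all genes, and 45 had both very old mice above both young mice (29% of all genes). Ube2c was 155 and 188 CPM in young, 131 and 147 in middle-aged, 136 and 142 in old, and 284 and 274 in very old mice, a fold change of 0.71 ± 0.10 (adjusted p 0.0217). Kif11, a motor of the mitotic spindle, was 42.4 and 51.3, 43.5 and 42.4, 40.2 and 42.5, and 74.8 and 73.7 CPM (0.67 ± 0.09, adjusted p 0.0217). Top2a, the topoisomerase that untangles chromosomes, was 239 and 304, 246 and 277, 237 and 268, and 369 and 399 CPM (0.51 ± 0.09, adjusted p 0.0265). For all 3 the very old mice were above every other mouse. In matched members 6 of the 52 were called higher and the median was 0.18, and Ube2c was called at 0.58 ± 0.09 (adjusted p 0.0266) and Kif11 at 0.53 (adjusted p 0.0394). Top2a was 0.40 there (adjusted p 0.0543). The median in granulocyte-monocyte cells was 0.23, and Ube2c was called there too (0.60, adjusted p 0.0374). Of 43 S phase genes 1 was called higher and 1 lower, 21 had both very old mice above both young mice, and medians were 0.13 in all and -0.02 in matched members.

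The 120 bases upstream of the RefSeq start of Cdk1 (chr10:69352913-69353032, minus strand), Ube2c (chr2:164769809-164769928, plus strand) and Top2a (chr11:99024190-99024309, minus strand) are shown because these G2 and M phase genes were called together. Capitals mark the letters of the CHR element of cell cycle promoters, TTTGAA or its variant TTCGAA, on either strand.
Cdk1: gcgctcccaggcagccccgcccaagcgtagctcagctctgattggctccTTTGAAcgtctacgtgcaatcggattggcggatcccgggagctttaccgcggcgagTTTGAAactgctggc
Ube2c: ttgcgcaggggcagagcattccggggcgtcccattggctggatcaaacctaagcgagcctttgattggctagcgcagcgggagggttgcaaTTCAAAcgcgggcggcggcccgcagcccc
Top2a: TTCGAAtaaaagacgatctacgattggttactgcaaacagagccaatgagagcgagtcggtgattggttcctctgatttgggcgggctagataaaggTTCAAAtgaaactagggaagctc
The nearest match began 15 bases before the start in Cdk1, 29 in Ube2c and 23 in Top2a. In the 300-base windows, 34 of 46 G2 and M phase genes held a match (73.9%), as did 9 of the 13 called higher that had a promoter (69.2%), against 6 of 31 S phase genes (19.4%) and 19.4% of all promoters. CCAAT, the other element listed for these genes, was in 35 of 46 (76.1%), in 22 of 31 S phase genes (71%) and in 37.9% of all promoters. Cdk1, the kinase that drives entry into mitosis, was 117 and 141 CPM in young, 104 and 113 in middle-aged, 113 and 110 in old, and 196 and 177 in very old mice (0.53 ± 0.11, adjusted p 0.0345; matched 0.37, adjusted p 0.115).

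Among erythroid genes, Gata2 fell and few others were called. Gata2 was 89.5 and 50.6 CPM in young, 77.0 and 92.6 in middle-aged, 51.2 and 80.6 in old, and 31.5 and 25.6 in very old mice. Very old mice lay below all the others, with a log2 fold change of -1.28 ± 0.27 against young (adjusted p 0.0404) that was -0.49 ± 0.13 in matched members (adjusted p 0.116), although Gata2 is a gene of the score. Gata1 was 99.0 and 116 CPM in young and 115 and 120 in very old mice (0.14, adjusted p 0.331). Of 24 erythroid transcription factors 1 was called in each direction (1.62% of all genes higher, 2.7% lower), and the median was 0.05. Among 21 genes of erythropoietin and Kit signalling 0 were higher and 3 lower, Csf2rb, Il3ra and Stat3, receptor chains for related cytokines and a signal transducer, at -1.20, -0.99 and -0.53. Their list had a median of -0.16, and none of the 3 was called in matched members. Kit was 89.4 and 75.9 CPM in young and 77.9 and 83.8 in very old mice (-0.03).

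Red cell membrane genes lay higher in very old than young mice, with 3 of 27 called up (1.62% of all genes), 0 down (2.7%), a median of 0.36 and 18 genes with both very old mice above both young mice (29% of all genes). Rhag, the Rh-associated glycoprotein, was 58.0 and 95.7 CPM in young, 49.4 and 52.5 in middle-aged, 62.2 and 54.1 in old, and 120 and 135 in very old mice. It was called in all members (0.74 ± 0.17, adjusted p 0.0462) and in matched ones (0.52 ± 0.08, adjusted p 0.0266), where it was also a gene of the score. Epb41 (protein 4.1 of the membrane skeleton) was called at 0.42 ± 0.10 and Tmod1, a capping protein of its actin filaments, at 1.52 ± 0.28, the second from 0.63 and 0.89 CPM in young and 2.32 and 2.17 in very old mice. In matched members the median was 0.15 with 3 called up, and in granulocyte-monocyte cells it was -0.20.

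Heme synthesis, with 19 genes, had 0 called up and 1 down against 1.62 and 2.7% of all genes (Hmox1, which breaks heme down and is listed with it) and a median of 0.22, or 0.03 in matched members. Iron handling had 1 of 20 called up, 0 down against the same background, and a median of 0.16. Tfrc was 91.3 and 129, 74.8 and 80.1, 111 and 83.1, and 145 and 157 CPM (0.46, adjusted p 0.129). The 14 later erythroid genes had no call, beside the same shares, and medians of 0.36 in all and 0.08 in matched members.

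**Figure D4:**
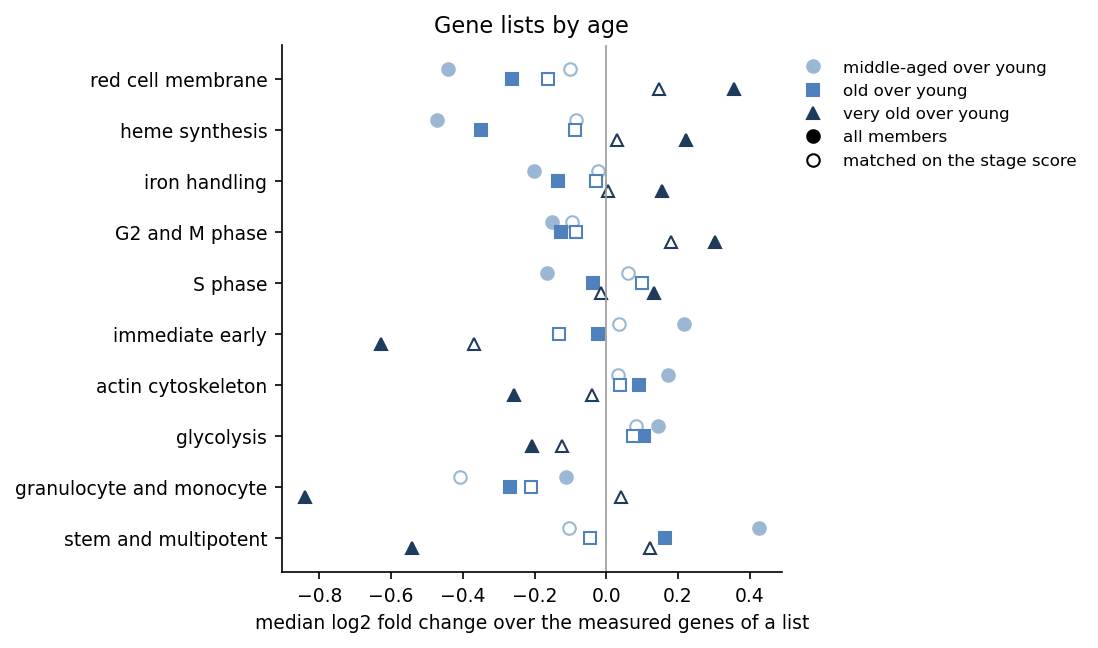
Median log2 fold change (x axis) of 10 gene lists (y axis) in middle-aged, old and very old against young mice, filled for all members and open for members matched by stage score. Red cell and heme lists lie below 0 in middle-aged and old mice and above 0 in very old mice, and lie nearer to 0 after matching. The score holds erythroid genes such as Rhag and progenitor genes such as Gata2, so matching acts on such lists directly.

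Jun fell most clearly. This immediate early gene, which answers many stimuli quickly, was 27.3 and 32.0 CPM in young, 37.1 and 38.1 in middle-aged, 35.4 and 44.2 in old, and 11 and 11.3 in very old mice. The very old mice were far below every other mouse, with a fold change of -1.41 ± 0.10 (adjusted p 0.00172), or -1.66 ± 0.16 in matched members (adjusted p 0.00229). Fos was 1.5 and 1.64, 2.29 and 1.91, 2.55 and 1.70, and 0.21 and 0.44 CPM (-2.30 ± 0.37, adjusted p 0.0255), and Ier2 fell by 0.44 (SE 0.09, adjusted p 0.036). Of 19 measured immediate early genes 3 were called lower (2.7% of all genes), 0 higher, and the median was -0.63. In matched members Jun alone was called, the median was -0.37, Fos was -1.82 ± 0.47 (adjusted p 0.111) and Ier2 -0.40 ± 0.08 (adjusted p 0.0634). Jun fell in granulocyte-monocyte cells of the same libraries as well (-1.75, adjusted p 0.0167), where it was 26.6 and 37.4 CPM in young and 7.57 and 11.3 in very old mice.

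Lgals1, Vim, Ifitm1 and Lmo4 were, with Jun, the 5 largest falls chosen in the same way. Vim was 205 and 101 CPM in young, 197 and 197 in middle-aged, 164 and 153 in old, and 64.8 and 41.2 in very old mice (-1.50 ± 0.21, adjusted p 0.0227; matched -0.39 ± 0.09, adjusted p 0.0887). Ifitm1, an interferon-induced membrane protein, was 182 and 65.8, 323 and 328, 182 and 124, and 60.9 and 27.9 CPM (-1.44 ± 0.28, adjusted p 0.0336; matched -0.27, adjusted p 0.447). Pkm, a glycolytic kinase, was 42.9 and 37.3, 45.4 and 50.2, 36.5 and 38.8, and 19.6 and 17.0 CPM (-1.13 ± 0.11, adjusted p 0.00806; matched -0.25, adjusted p 0.491). With each mouse left out in turn, the change in all members ran from -1.84 to -0.90 for Ifitm1 and from -1.85 to -1.07 for Vim. For Vim, Ifitm1 and Pkm the very old mice were lowest, and none of the 3 was called once members were matched by stage. Lgals1 (galectin-1) and Lmo4, a transcription cofactor, were called in both. Lgals1 was 199 and 90.8 CPM in young and 60.8 and 30.5 in very old mice (-1.65 ± 0.21, adjusted p 0.0216; matched -0.77 ± 0.13, adjusted p 0.0366). Lmo4 was 44.1 and 36.3 in young and 15.6 and 14.4 in very old mice (-1.42 ± 0.17, adjusted p 0.0166; matched -0.69 ± 0.13, adjusted p 0.0416). Of 26 actin cytoskeleton genes 8 were called lower (2.7% of all genes) and 0 higher (median -0.26), and 1 was lower in matched members (median -0.04).

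A further 2 genes were called lower in all and in matched members. The linker histone gene Hist1h1d was 32.0 and 40.7, 32.4 and 37.9, 23.9 and 45.8, and 20.3 and 27.5 CPM, and old mice overlapped with very old ones (-0.61 ± 0.14, adjusted p 0.0484; matched -0.74 ± 0.13, adjusted p 0.0402). Nrros, a regulator of reactive oxygen species, was 32.8 and 26.1, 31.3 and 31.7, 22.1 and 32.0, and 14.8 and 14.8 CPM, with very old mice lowest (-0.99 ± 0.16, adjusted p 0.0255; matched -0.70 ± 0.12, adjusted p 0.0394).

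**Figure D5:**
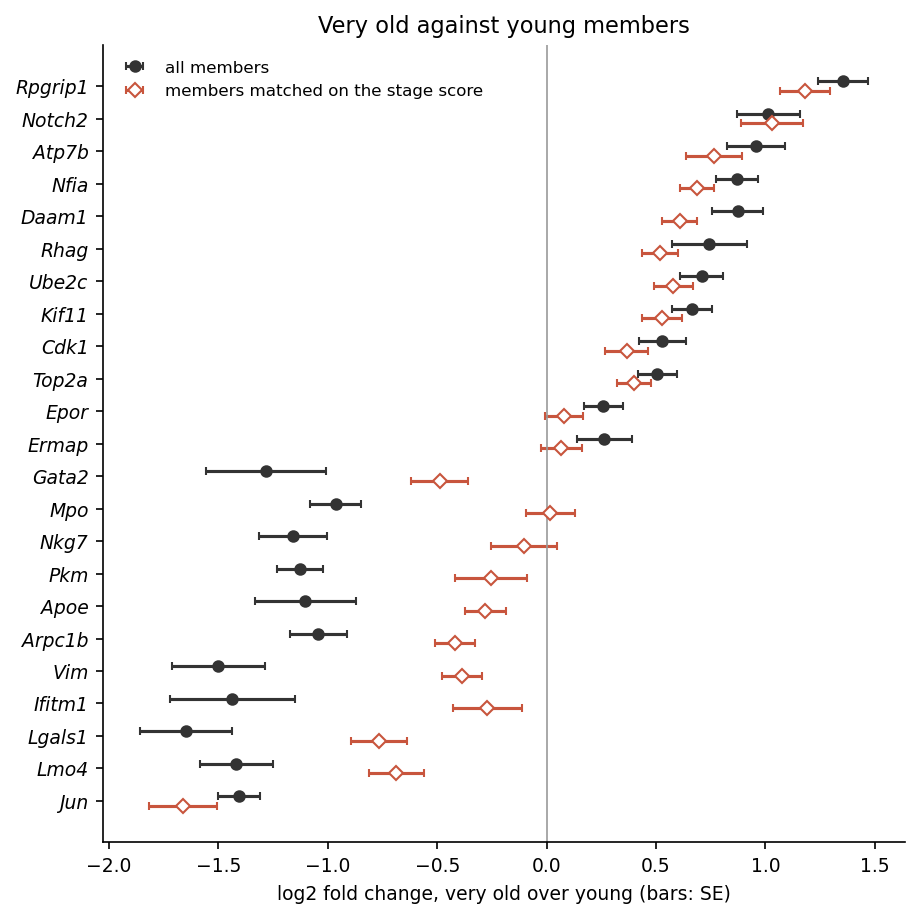
Log2 fold change ± SE (x axis) of very old against young mice for 23 genes (y axis), in all members and in members matched by stage score. Jun, Rpgrip1, Notch2 and Nfia stay at 0.69 or more in size after matching, while Vim, Ifitm1, Pkm and Mpo move towards 0.

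Markers of other cell types moved with these results. The 18 listed granulocyte and monocyte markers summed to 669 and 760 CPM in members of young mice, 493 and 710 in middle-aged, 584 and 695 in old, and 333 and 468 in very old mice, against 14031 to 26932 CPM in granulocyte-monocyte cells. Of the 16 that passed the filter on low counts 4 were called lower (2.7% of all genes) and 0 higher in very old mice (median -0.84), and 0 after matching (median 0.04). Mpo was 179 and 216 CPM in young and 88.9 and 115 in very old members (-0.96 ± 0.12, adjusted p 0.0166; matched 0.02). Members with fewer than 2 UMIs over 9 genes of other lineages made up 58.9 and 43.7% in very old mice and 5.29 to 12.7% in the other 6. Medians were -0.43 for 13 megakaryocyte, -1.26 for 9 basophil and mast cell, -0.54 for 13 stem cell, -1.22 for 8 lymphoid and dendritic and -1.42 for 9 macrophage markers, with 2, 2, 1, 3 and 1 called lower and 1, 0, 1, 0 and 0 higher. In matched members these medians were -0.04, 0.30, 0.12, -0.75 and -1.31, and 1 lymphoid and dendritic marker was called lower and none of the others in either direction. The score used for matching holds genes of earlier progenitors, such as Kit and Cd34, so matching acts on related markers directly. Summed levels in very old against other members were 43.2 to 55.9 and 58.7 to 99.1 CPM for megakaryocyte markers, 43.3 to 47.4 and 69.9 to 144 for basophil and mast cell markers, 29.7 to 40.9 and 60.8 to 113 for lymphoid and dendritic markers, 101 to 112 and 94.6 to 126 for stem cell markers, and 46.7 to 49.4 and 34.6 to 53.6 for macrophage markers. Cd3e, the T cell marker, was the 1 listed marker with no UMI in any mouse's members. The part of free RNA or joined cells in the results above was not tested beyond the counts given with such cells left out.

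Very old against old mice, a contrast added after the data had been seen, gave 2135 calls, 1056 higher (8.41%) and 1079 lower (8.59%). In matched members there were 202 (128 higher, 1.09%, and 74 lower, 0.631%), which became 20 without the very old male, 29 without the old male, 60 to 80 without any 1 of the young or middle-aged mice, 144 without the very old female and 648 without the old female. Ctse, an aspartic protease of erythroid cells, was 133 and 232 CPM in young, 71.7 and 73.1 in middle-aged, 59.5 and 94.5 in old, and 282 and 261 in very old mice, a fold change over old mice of 1.87 ± 0.21 (adjusted p 0.00373) that was 0.99 ± 0.16 in matched members (adjusted p 0.0220). Cldn13, an erythroid claudin, was 98.8 and 170, 64.5 and 60.1, 73.6 and 74.3, and 224 and 217 CPM (1.58 ± 0.19; matched 0.76 ± 0.08), and it is a gene of the score. Middle-aged and old mice were below both young mice for Cldn13, and very old mice were above all. Of 27 red cell membrane genes 20 were called higher and 0 lower (median 0.69), of 19 heme synthesis genes 11 and 0 (0.54), of 14 later erythroid genes 11 and 0 (0.77), and of 52 G2 and M phase genes 39 and 0 (0.47). In matched members these lists had 4, 0, 2 and 16 genes called higher. Calls were 93 without the very old male, 768 without the very old female, 904 without the old female, 1266 and 1249 without either middle-aged mouse and 1837 to 2794 without the others, and were 3 when cells were kept only below 5% mitochondrial UMIs. The cause of the last drop was not tested.

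The change in very old against young mice was tested against the same change in granulocyte-monocyte cells, which asks whether it was particular to the erythroid members. Both sums of a mouse entered the fit, with the mouse as a block. For 451 of 12727 genes (3.54%) the difference passed, 75 more positive and 376 more negative in members. Among them were Lgals1 (-1.51, adjusted p 0.009) and Vim (-1.22, adjusted p 0.015). Many were scarce in 1 of the 2 cell groups. The 376 held Cebpa, at 4.95 CPM in members and 77.8 in granulocyte-monocyte cells, Spi1 (15.5 and 221) and Clec12a (8.68 and 267). The 75 held Ctse (149 and 3.56) and Ermap (201 and 2.19), and these examples were chosen after their values were seen. The count is therefore not read as a number of changes particular to the members. Mpo, on which the granulocyte-monocyte cells were selected, is not read here. In members matched by stage 13 genes passed, of which Lgals1 was 1 (-0.66, adjusted p 0.0494) while Vim was not called. Others of the 13 were genes of neutrophil or basophil granules and their relatives, more positive in members and low there: Prss34 (6.42), Camp (5.92), Ngp (5.61), S100a9 (3.84), Mcpt8 (2.36) and S100a8 (2.31), with member means of 0.78 to 11.5 CPM. They were named after their values were seen, are only part of the 13, and were not tested as a set. Each mouse was then left out in turn from the fit of all members, and not from that of matched members. Without 1 mouse the count was 0 (very old female), 1 (very old male), 19 (young male), 233 and 244 (either middle-aged mouse) or 661 to 1025 (the others). For older against young mice 0 of 12727 genes passed (0%, edgeR quasi-likelihood test), with 1202 at an unadjusted p under 0.05 and 15 by DESeq2.

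Few genes differed by sex in the members. Of 12558 genes 7 were higher (0.0557%) and 6 lower (0.0478%) in females, and Xist and the Y-linked genes Ddx3y and Uty lay on the side of the labelled sex in all 8 libraries. Kdm6a, an X-linked histone demethylase that escapes inactivation, was 15.6, 15.4, 13.3 and 17.5 CPM in males from young to very old and 26.6, 21.7, 23.4 and 29.5 in females (0.71 ± 0.07, adjusted p 0.0061). Eif2s3x, an X-linked translation factor, was 64.7, 58.4, 69.3 and 84.2 in males and 111, 95.3, 94.0 and 119 in females (0.60 ± 0.07, adjusted p 0.0136). Males and females did not overlap for either gene.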

How the data were processed

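Single-cell RNA-seq matrices of 8 mice were used, and groups were taken from the labels. The values are UMI counts per gene and cell, deposited by the authors as filtered Cell Ranger matrices on mm10 with 32285 genes, and the matrix headers name version 6.0.0. The labels name Chromium v.3 and the series' design text a GEM-X v4 kit, so the kit is uncertain. Strand, intron counting and doublet removal before deposit are not given in the sources used here, so reads of overlapping genes may be shared.

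Members were selected by the rule in a script, and their UMIs were summed per mouse. The members, the gene lists and the comparisons were chosen with earlier results of these data known. Sums were tested with edgeR 4.0.16 (R 4.3.3): TMM scaling, filterByExpr, quasi-likelihood F test, a term for age group and one for sex, 3 residual degrees of freedom, Benjamini-Hochberg adjustment over all genes tested, called at an adjusted p under 0.05. Older against young is the mean of the old and very old coefficients minus young. CPM of single genes by mouse are TMM-scaled, and fold changes are log2 with SE. CPM of the stage terciles, of cells at the limits of the rule and of summed marker lists are not TMM-scaled. DESeq2 1.42.0, other scaling and filters, other member limits, thinning to 5000 UMIs and leaving out each mouse were alternatives. The stage score, the matched members and the comparisons of very old with old mice and of very old minus young between cell groups were chosen after seeing the data. The score added 1 to levels per 10000 UMIs before the log. Possible doublets were not called. In 1 alternative, members above 2 times the median UMIs of their mouse's members were left out. In another, members with 2 or more UMIs over 9 genes of other lineages were left out.

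Shares were compared by exact permutation tests (scipy 1.17.1). They cover 1 male and 1 female a group, so spread between mice and sex differences are mixed in each SD.

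Named genes were, for each comparison, the 5 largest rises and falls among genes called with a mean of at least 20 CPM and no overlap between the groups, leaving out Xist, Y-linked genes, rule genes and unnamed gene models, plus the markers and up to 4 called members of each list. Genes named beyond that, such as Kit, Tfrc and Mpo, and those of the stage terciles were chosen after their values were seen. On simulated counts for very old against young mice over 12565 genes, 74.6% of genes changed 1.5-fold and 98.5% of those changed 2-fold were called. The calls were 50, 66 and 66 genes changed 1.5, 2 and 4-fold, and 18 unchanged genes. The counts were drawn gene by gene around 1 common profile, without a shift shared by the genes of a library. The simulation thus does not give the share recovered in these data. Some genes were measured and are not reported here by name.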

Additional observations from a re-analysis of the deposited data

Results flagged for a closer look

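By edgeR's quasi-likelihood test of the age by cell group term, 451 of 12727 genes passed (3.54%). Their very old against young change differed between erythroid members and granulocyte-monocyte cells of the same mice. In 75 of them the change was more positive in members and in 376 more negative. The number was 13 in members matched by stage. In all members it was 0 without the very old female and 1 without the very old male. It is not read as a number of changes particular to the members. Among 8 groups of 4 mice examined, 0 values stood apart from the rest of their group by Dixon's limit. The groups were the 4 older mice, for the share of members and for the early part of the erythroid gate, and each sex for Kdm6a, Eif2s3x and AC149090.1. No gene of an age comparison was examined in this way, so nothing is said of the libraries on which the age calls rest.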

How the results depend on the processing

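No result is firmer than 2 mice a group allows, and very old age and library series cannot be told apart. The first number in each series of calls is for older, then middle-aged, old and very old against young, very old against old, female against male, and the comparisons with granulocyte-monocyte cells for older and for very old mice, and only counts that moved by more than 1.5 times are given. DESeq2 called 17, 174 and 58 for older, middle-aged and old mice, 86 by sex, and 15 and 296 against granulocyte-monocyte cells. Without a filter on low counts these were 3 for older, 42 for middle-aged, 23 by sex, and 134 and 883. Without a sex term older gave 1, very old 195 and its comparison with granulocyte-monocyte cells 274. With the first library series alone, middle-aged gave 3, sex 21, and the early part of the erythroid gate turned to 1.28 points higher in old than young mice. In cells thinned to 5000 UMIs the counts were 1, 21, 1, 120, 801 and 20, and 8 and 100 against granulocyte-monocyte cells. A Klf1 and Car1 limit of 1 gave 1094 for very old mice, and a limit of 3 gave 4 for middle-aged and 26 by sex. A globin limit of 10 gave 1 for middle-aged and 22 by sex. A mitochondrial limit of 5% gave 1 for very old against young, 3 for very old against old and 6 by sex. Without members of high UMI count these were 16, 1395 and 7. Without members holding UMIs of other lineages, which left 39 to 196 members in each first-series library, the counts were 36, 31, 2 and 1126 against young and 43 by sex, and the very old against old change of Nt5dc2 reversed to 0.025. Equal cell numbers gave 30 for middle-aged and 20 by sex. Members matched by stage gave 4, 1, 56 and 202 for older, middle-aged and very old against young and very old against old, 56 by sex, and 10 and 13 against granulocyte-monocyte cells. The cause of these moves was not tested, beyond the fewer cells or genes that thinning, matching and the limits leave.

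With each mouse left out, calls ranged from 0 to 153 for older, 0 to 659 for middle-aged, 0 to 240 for old and 4 to 1794 for very old against young, 93 to 2794 for very old against old, 8 to 30 by sex, and 0 to 314 and 0 to 1025 against granulocyte-monocyte cells. The older minus young share stayed below 0, from -9.32 to -2.28 points, and was -12.7 with the first series alone. The early part of the erythroid gate ranged from -2.49 to 0.45 points and was above 0 without the young male. Of the values of single named genes under alternatives, 847 were counted as kept, 118 lost the call, 30 gained it and 1 reversed. Epor and Ermap values that stayed uncalled were counted as kept whatever their direction. Values with no adjusted p in an alternative were counted as kept where their direction held. The 847 are thus not all calls that held. With each mouse left out, older against young ran from -0.13 to 0.09 for Epor and -0.15 to 0.17 for Ermap. Their direction was thus not kept in that comparison. A test of members against globin-rich cells was not reported, since the rule's globin limit separates them, and its comparison over ages was not run because 3 mice had at least 50 globin-rich cells. The labels give no replicate numbers that mice share across ages, so the age fits have a sex term and no other block, and the fits with granulocyte-monocyte cells have the mouse as a block.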

Other observations

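A list of genes known to rise in aged blood stem cells was read in the erythroid members, where most of its genes were near the limit of detection. Of its 23 measured genes, 13 were above both young mice in both middle-aged mice (21% of all genes), 11 in both old mice (13.5%) and 5 in both very old mice (29%). Median log2 fold changes against young mice were 0.49, 0.50 and 0.47, and in members matched by stage 0.37, 0.50 and 0.43. In granulocyte-monocyte cells they were 0.35, 0.54 and 0.36. No gene of the list was called in middle-aged or old mice, and 3 were called higher (1.62% of all genes) and 2 lower (2.7%) in very old mice. Plscr2, a phospholipid scramblase and 1 of those called higher, was 1.0 and 0.78 CPM in young and 1.93 and 2.59 in very old members. The 3 comparisons share the young mice.

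In very old against young members, where 1.62% of all genes were called higher and 2.7% lower, other lists were p53 targets (0 of 18, median -0.10), chaperones (1 lower of 27, -0.18), interferon response genes (2 lower of 30, -0.22), MHC class I and antigen processing (0 of 22, -0.10), glycolysis (1 lower of 22, -0.21), antioxidant genes and metallothioneins (1 lower of 26, 0.16), nucleolus and ribosome assembly (0 of 26, 0.11) and CDK inhibitors, cyclins and their kinases (3 higher of 16, 0.04). The 3 last were Rb1 and Rbl1, of the retinoblastoma family and listed with these genes, and Cdkn2c, a CDK inhibitor, at 0.71, 0.58 and 0.50. None of them was called in matched members, where the list's median was -0.05.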
